A study of Mus musculus with 18 samples.

Results

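Transcript levels of 10 genes of fatty acid binding and lipid sensing were followed in mouse bone marrow cells that were homozygous knockout (KO), heterozygous knockout (HET) or wild type (WT) for Fabp4. The genes were Fabp4 and Fabp5, the peroxisome proliferator-activated receptor (PPAR) genes Ppara, Ppard and Pparg, the retinoid X receptor (RXR) genes Rxra and Rxrb, the liver X receptor (LXR) genes Nr1h2 and Nr1h3, and the cholesterol exporter gene Abcg1. They were chosen by name, with earlier results of these data known. All 10 were among the 22017 genes of the table of cells that the labels call sorted from vitro bone marrow, named in vitro here. The table of cells sorted directly from bone marrow held 6 of them among its 13195 genes, namely Fabp5, Ppard, Pparg, Rxrb, Nr1h2 and Abcg1. The in vitro set had 3 libraries of each genotype (KO, HET and WT), and the bone marrow set had 3 KO, 2 HET and 3 WT libraries. The labels name neither the sorted population, the culture, the strain nor the age of the mice, and they do not say how Fabp4 was deleted or whether the deletion was limited to a cell type. By the design text each genotype had 3 mice in each set, but no library is tied to a mouse, so the p-values below measure the spread between libraries. The series title concerns leukemia stem cells and hematopoietic stem cells, and no label says whether these cells were leukemic.

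Fatty acid binding proteins are small cytosolic carriers that keep fatty acids soluble and hand them to membranes, enzymes and nuclear receptors. Fabp4 is the form best known from adipocytes and macrophages, and Fabp5 is a close relative found in skin, macrophages and many other cells. PPARs and LXRs are transcription factors that bind lipids, the first fatty acids and their derivatives and the second oxidised cholesterol, and both bind DNA as pairs with an RXR. Genes they switch on include those for fatty acid use, lipid storage and cholesterol export, Abcg1 among them.

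Values are FPKM, fragments per kilobase of transcript and scaled by the number of mapped fragments, so levels are per length and can be set side by side between genes. The steps between low values put the depth at 30.4 to 36.9 M mapped fragments for the in vitro libraries and at 3.94 to 36.0 M for those of bone marrow, where the HET libraries were the shallowest with 3.94 and 11.7 M. Genes above 0 numbered 16779 to 18029 in the in vitro libraries. In bone marrow they numbered 6560 to 8519 in KO, 3633 to 5209 in HET and 8194 to 8526 in WT libraries. At an estimated depth of 31.7 M each, WT replicate 3 held 16779 of 22017 listed genes above 0 in vitro and 8194 of 13195 in bone marrow. The part of depth in these numbers was not tested. Across genes, Spearman correlations between pairs of libraries ran from 0.962 to 0.970 in vitro and from 0.427 to 0.621 in bone marrow. Transcripts of the X inactivation gene Xist and of Y genes stood together at 1 FPKM or more in 9 of the 9 in vitro libraries, so a library may hold cells of several mice. The summed level of 4 Y genes was 16.1 to 18.1 FPKM in KO, 25.7 to 30.3 in HET and 8.68 to 11.1 in WT libraries, and its part in the differences between genotypes was not tested. In bulk samples fewer cells of a type and less RNA per cell cannot be told apart.

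Fabp4, the deleted gene, lay on chromosome 3 (10204342 to 10208616, GRCm38.p6, the assembly that mm10 holds). In vitro it was listed at 0 FPKM in KO replicates 1, 2 and 3, at 0, 0.0676 and 0 in HET replicates 1, 2 and 3 and at 0, 0.0326 and 0.330 in WT replicates 1, 2 and 3. One library, WT replicate 3, carried most of the signal, and a WT library without a value above 0 overlapped with the KO group. If the WT replicate 2 value stands for 1 fragment, the HET replicate 2 value stands for 2.01 and the WT replicate 3 value for 9.09 fragments. The KO minus WT difference of -0.121 FPKM gave an exact two-sided permutation p of 0.4 and the HET minus WT difference of -0.0983 FPKM gave 0.7 by the same exact permutation test, where 0.1 is the smallest p that 3 libraries against 3 allow. At this depth Fabp4 transcripts were too few to check the genotype labels.

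Adipocyte markers were also near 0 in vitro, and 4 of 6 were in the table. Their summed level was 0.182 to 0.699 FPKM in KO, 0.122 to 0.851 in HET and 0.376 to 0.857 in WT libraries. Of 12 macrophage markers 10 were in the table, and none of these was at 0 throughout. They summed to 73.4 to 81.4 FPKM in KO, 90.8 to 103 in HET and 53.1 to 69.8 in WT libraries. Cd68 was the largest part of that sum, with means of 43.7 FPKM in KO, 37.7 in HET and 34.1 in WT. The macrophage markers C1qa, C1qb and Mrc1 were near 0, with at most 0.0265, 0.115 and 0.0756 FPKM in any library. Markers of leukocytes in general (4 of 4) summed to 432 to 473 FPKM in KO, 471 to 519 in HET and 394 to 468 in WT libraries.

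Fabp5 was the one abundant fatty acid binding protein gene in vitro, and it fell in KO cells. Its level was 44.1, 48.8 and 48.4 FPKM in KO, 76.7, 74.7 and 69.7 in HET and 75.1, 93.6 and 100 in WT replicates 1, 2 and 3. All KO libraries lay below all HET and WT libraries, while HET and WT overlapped through WT replicate 1. The means were 47.1 ± 2.58 FPKM in KO, 73.7 ± 3.63 in HET and 89.6 ± 13.001 in WT (SD, n = 3 each). The log2 change of FPKM + 1 in KO against WT was -0.90 ± 0.10 (SE, limma adjusted p = 0.00098), which ranked 15 by p among the 10877 genes tested. KO against HET it was -0.64 ± 0.10 (limma adjusted p = 0.0059), and HET against WT it was -0.27 ± 0.10 (limma adjusted p = 0.137, and 0.0237 without WT replicate 1).

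Fabp5 lies at chromosome 3, 10012585 to 10016610, with its nearest end 188 kb from Fabp4 in the same cluster of fatty acid binding protein genes. Within 1000 kb of Fabp4 the other tested genes were Zbtb10, C030034L19Rik, Zfp704, Impa1 and Zfand1, and none passed the threshold in KO against WT. Impa1, an inositol phosphatase gene 103 kb from Fabp4, had 21.1 ± 0.627 FPKM in KO, 20.9 ± 0.968 in HET and 20.8 ± 1.26 in WT cells (SD, n = 3 each). Zfand1, a zinc finger gene 131 kb away, had 19.1 ± 1.45 FPKM in KO, 16.7 ± 0.370 in HET and 18.7 ± 0.717 in WT cells (SD, n = 3 each). The log2 changes of the 5 neighbours in KO against WT ran from -0.32 for Zbtb10 to 0.32 for C030034L19Rik, with limma adjusted p from 0.156 to 0.921.

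Other genes of the family were close to 0 in vitro. Of 15 fatty acid and retinoid binding protein genes 10 were in the table and 2 were tested. The highest level in any library was 0.228 FPKM for the liver form Fabp1, 0.0479 for the heart form Fabp3 and 0.137 for Fabp12, which sits next to Fabp4. Crabp2, a retinoic acid carrier, was the other gene tested and had 1.08 ± 0.540 FPKM in KO, 0.293 ± 0.203 in HET and 0.784 ± 0.766 in WT cells (SD, n = 3 each). Its log2 change in KO against WT was 0.29 ± 0.29 (limma adjusted p = 0.628).

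**Figure D1:**
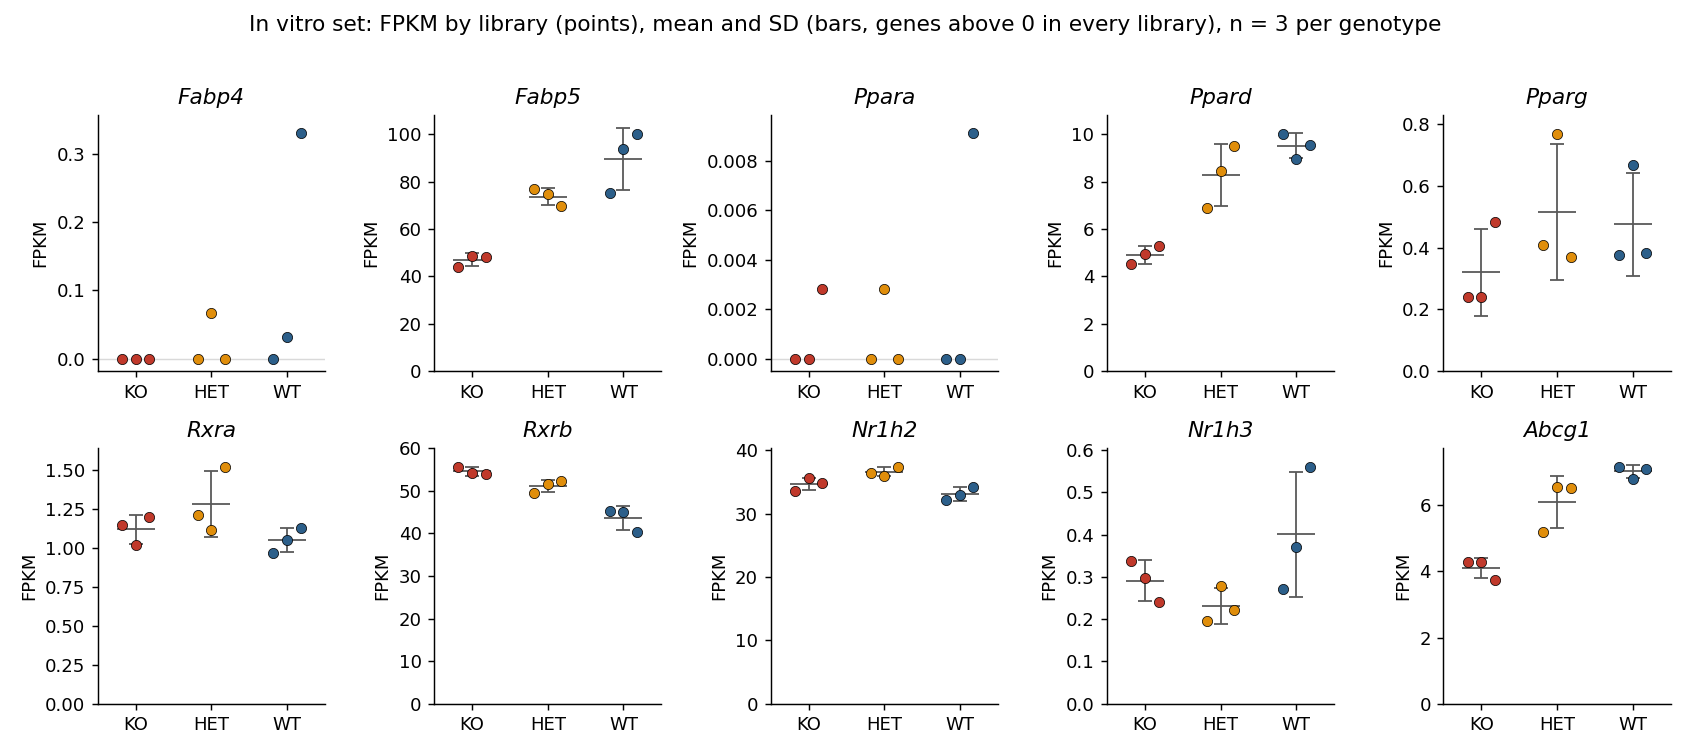
FPKM of the 10 genes in each in vitro library (points, replicates 1 to 3 from left to right) in KO, HET and WT cells, with the mean (long bar) and SD (short bars, n = 3) for the genes above 0 in every library. For Fabp5, Ppard and Abcg1 all KO points lie below all WT points, and for Rxrb all KO points lie above all WT points.

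Each receptor family had one dominant gene in vitro. Ppard made up 94.0 ± 2.07% of the summed FPKM of the 3 PPAR genes in KO, 94.1 ± 2.32% in HET and 95.2 ± 1.84% in WT cells (SD, n = 3 each). Rxrb made up 98.0 ± 0.163% of the sum of Rxra and Rxrb in KO, 97.6 ± 0.359% in HET and 97.6 ± 0.321% in WT cells. Nr1h2 made up 99.2 ± 0.155% of the sum of both LXR genes in KO, 99.4 ± 0.122% in HET and 98.8 ± 0.393% in WT cells. The KO and WT shares gave exact two-sided permutation p of 0.5 for PPARs, 0.2 for RXRs and 0.2 for LXRs.

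The bases just before the start of the dominant receptor genes are shown as a description. In KO against WT cells Ppard was lower, Rxrb higher and Nr1h2 not past the threshold, and any part of these bases in that was not tested. Fabp5 and Abcg1, which also passed the threshold, had no window among the sequences used here. The sequences are RefSeq windows of 250 bases upstream of a transcript start (GRCm38.p6), 5′ to 3′ on the gene's strand. Capitals mark ACGTG on either strand, part of the element that hypoxia-inducible factors bind and of many E-boxes, and GGGCGG, the core of the box bound by Sp1.
Ppard, chr17:28232504-28232753, plus strand: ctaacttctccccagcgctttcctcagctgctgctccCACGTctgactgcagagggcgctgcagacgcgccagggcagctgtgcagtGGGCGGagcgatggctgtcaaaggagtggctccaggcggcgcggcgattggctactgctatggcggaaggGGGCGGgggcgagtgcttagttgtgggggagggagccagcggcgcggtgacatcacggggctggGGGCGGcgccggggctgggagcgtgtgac
Rxrb, chr17:34031562-34031811, plus strand: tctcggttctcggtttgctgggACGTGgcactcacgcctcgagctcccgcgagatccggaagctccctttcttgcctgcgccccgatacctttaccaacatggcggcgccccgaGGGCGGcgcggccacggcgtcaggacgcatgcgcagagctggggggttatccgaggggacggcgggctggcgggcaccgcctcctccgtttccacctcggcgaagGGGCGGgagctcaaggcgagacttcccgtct
Nr1h2, chr7:44553966-44554215, minus strand: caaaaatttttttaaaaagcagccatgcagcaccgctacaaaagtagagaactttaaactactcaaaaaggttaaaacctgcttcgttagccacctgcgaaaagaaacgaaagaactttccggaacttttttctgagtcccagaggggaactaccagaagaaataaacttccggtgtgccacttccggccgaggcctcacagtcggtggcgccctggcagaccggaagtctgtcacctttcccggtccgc

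The Ppard window held 1 ACGTG and 3 GGGCGG with a GC content of 69.6%, and the Rxrb window held 1 ACGTG and 2 GGGCGG with 69.2% GC. The Nr1h2 window held neither and had 48.4% GC. On either strand ACGTG was in 16.6% and GGGCGG in 32.7% of 32851 RefSeq windows of this length. Rxrb has a second window (chr17:34032100-34032349), not printed, which held 0 ACGTG and 3 GGGCGG with 82.4% GC, so the ACGTG of Rxrb is limited to the window shown. The half-site of PPARs, LXRs and RXRs, AGGTCA on either strand, was in 14% of all windows and in none of the 3 shown. A match is a description of these letters and no match speaks only of these windows.

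Among the PPARs, Ppard, a ubiquitous fatty acid sensor on chromosome 17 (28232754 to 28301469), fell in KO cells. Its level was 4.51, 4.92 and 5.29 FPKM in KO, 6.87, 8.44 and 9.49 in HET and 10.005, 8.95 and 9.55 in WT replicates 1, 2 and 3. All KO libraries lay below all HET and WT libraries, and HET and WT overlapped. The means were 4.91 ± 0.391 FPKM in KO, 8.27 ± 1.32 in HET and 9.50 ± 0.527 in WT (SD, n = 3 each). The log2 change was -0.83 ± 0.11 in KO against WT (limma adjusted p = 0.00319), -0.64 ± 0.11 in KO against HET (0.0114, limma adjusted p) and -0.19 ± 0.11 in HET against WT (limma adjusted p = 0.337). The KO against HET call was lost without KO replicate 1, HET replicate 2 or HET replicate 3 (limma adjusted p = 0.0634, 0.0734 and 0.0782).

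Pparg, the master regulator of adipocytes and the PPAR most tied to Fabp4 in fat and macrophages, was low in every in vitro library. On chromosome 6 (115360879 to 115490404), it stood at 0.239, 0.239 and 0.482 FPKM in KO, 0.409, 0.768 and 0.369 in HET and 0.376, 0.668 and 0.382 in WT replicates 1, 2 and 3. One KO library lay within the HET and WT values, so the groups overlapped (exact two-sided permutation p = 0.3 for KO against WT, 0.7 for HET against WT and 0.3 for KO against HET). Ppara, the PPAR of liver fatty acid oxidation, on chromosome 15 (85734910 to 85806851), was above 0 in 3 libraries. These were KO replicate 3 with 0.00282 FPKM, HET replicate 2 with 0.00280 and WT replicate 3 with 0.00912, which amount to about 1, 1 and 3.02 fragments. The summed level of the 3 PPAR genes was 5.23 ± 0.517 FPKM in KO, 8.78 ± 1.34 in HET and 9.98 ± 0.382 in WT cells (SD, n = 3 each). The KO sum lay below the WT and HET sums with an exact two-sided permutation p of 0.1 in each case, the smallest possible. Ppard made up most of each sum, so this repeats the Ppard values and is no separate result on the family.

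Rxrb, an obligate partner of PPARs and LXRs, on chromosome 17 (34031812 to 34038403), rose in KO cells. Its level was 55.7, 54.1 and 53.9 FPKM in KO, 49.5, 51.6 and 52.4 in HET and 45.2, 45.1 and 40.3 in WT replicates 1, 2 and 3. The 3 groups did not overlap, with KO highest and WT lowest. The means were 54.6 ± 0.963 FPKM in KO, 51.2 ± 1.47 in HET and 43.5 ± 2.79 in WT (SD, n = 3 each). The log2 change was 0.32 ± 0.07 in KO against WT (limma adjusted p = 0.0331), 0.23 ± 0.07 in HET against WT (limma adjusted p = 0.0849) and 0.09 in KO against HET (limma adjusted p = 0.676). The Rxrb call stood close to the threshold. It was lost without KO replicates 1 or 3, HET replicates 2 or 3, or WT replicates 2 or 3 (limma adjusted p = 0.147, 0.127, 0.0640, 0.0536, 0.0780 and 0.0610), with no filter on low values (0.0579), after rescaling to TPM (0.0677), with replicate number as a block (0.0766) and with only KO and WT in the fit (0.0738), while its log2 change stayed between 0.27 and 0.35.

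Rxra, the other partner and the main RXR of liver and myeloid cells, on chromosome 2 (27676445 to 27763319), stood at 1.14, 1.02 and 1.20 FPKM in KO, 1.21, 1.11 and 1.52 in HET and 0.969, 1.05 and 1.13 in WT replicates 1, 2 and 3. All 3 genotypes overlapped, and the log2 change in KO against WT was 0.05 ± 0.10 (limma adjusted p = 0.846). The sum of Rxra and Rxrb was 55.7 ± 0.981 FPKM in KO, 52.5 ± 1.60 in HET and 44.6 ± 2.73 in WT cells (SD, n = 3 each).

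The LXR genes did not pass the threshold in vitro. Nr1h2, which encodes the ubiquitous form LXR beta on chromosome 7 (44549616 to 44553968), stood at 33.6, 35.6 and 34.8 FPKM in KO, 36.4, 36.0 and 37.4 in HET and 32.1, 33.0 and 34.2 in WT replicates 1, 2 and 3. HET libraries were the highest and overlapped with neither other group, while KO and WT overlapped. Its log2 change was 0.06 ± 0.07 in KO against WT (limma adjusted p = 0.628) and 0.14 ± 0.07 in HET against WT (limma adjusted p = 0.220). Nr1h3, which encodes LXR alpha, the form of liver, fat and macrophages, lay on chromosome 2 (91184061 to 91202829). It stood at 0.337, 0.297 and 0.240 FPKM in KO, 0.195, 0.278 and 0.222 in HET and 0.270, 0.370 and 0.560 in WT replicates 1, 2 and 3, and the KO values overlapped with both other groups. The exact two-sided permutation p for Nr1h3 was 0.3 for KO against WT, 0.2 for HET against WT and 0.2 for KO against HET.

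Abcg1, which moves cholesterol out of cells to high-density lipoprotein and is switched on by LXRs, fell in KO cells. On chromosome 17 (31057694 to 31117984), its level was 4.27, 4.29 and 3.75 FPKM in KO, 5.19, 6.55 and 6.53 in HET and 7.17, 6.80 and 7.10 in WT replicates 1, 2 and 3. The 3 groups did not overlap, with KO lowest and WT highest. The means were 4.10 ± 0.309 FPKM in KO, 6.09 ± 0.782 in HET and 7.02 ± 0.194 in WT (SD, n = 3 each). The log2 change was -0.65 ± 0.10 in KO against WT (limma adjusted p = 0.00768), -0.47 ± 0.10 in KO against HET (limma adjusted p = 0.0397) and -0.18 ± 0.10 in HET against WT (limma adjusted p = 0.306). The KO against WT call was lost without KO replicate 3 (limma adjusted p = 0.0572). The KO against HET call was lost without any of KO replicates 1 to 3, HET replicates 2 or 3 or WT replicate 2, and in 3 other settings (limma adjusted p up to 0.206).

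In order of mean level over the 9 in vitro libraries the genes ran Fabp5 (70.2 FPKM), Rxrb (49.8), Nr1h2 (34.8), Ppard (7.56), Abcg1 (5.74), Rxra (1.15), Pparg (0.437), Nr1h3 (0.308), Fabp4 (0.0478) and Ppara (0.00164). In KO cells the order of the first 2 was turned round, with Rxrb between 53.9 and 55.7 FPKM and Fabp5 between 44.1 and 48.8. Over all libraries neighbours in this order overlapped, apart from Rxrb and Nr1h2, Nr1h2 and Ppard, Abcg1 and Rxra, and Rxra and Pparg, whose ranges were separate. Ranked by mean level among all genes of the table, Fabp5 stood at percentile 95.5 and Pparg at percentile 46.3.

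Of the 6 genes tested in vitro in KO against WT, 3 fell and 1 rose, where 2.99% of all tested genes passed the threshold (1.63% lower and 1.36% higher). Without KO replicate 3 the calls were 2, Fabp5 and Ppard. The groups did not overlap for the same 4 genes, where 22.9% of all tested genes did not overlap. The median log2 change of the 6 genes was -0.30 beside 0.04 for all tested genes. Because the genes were chosen with earlier results of these data known, these counts and medians are descriptive and measure no enrichment. Fabp4, Ppara, Pparg and Nr1h3 failed the filter on low values (at least 1 FPKM in at least 3 libraries). Without that filter they gave limma adjusted p from 0.493 to 0.949 in KO against WT.

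HET cells stood between KO and WT cells for Fabp5, Ppard, Abcg1 and Rxrb. In HET against WT 0 of the 6 genes passed the limma threshold, where 3.68% of all tested genes did, and 2 (Fabp5 and Rxrb) had an unadjusted p under 0.05, where 23.4% did. The groups did not overlap for 3 genes, with Rxrb and Nr1h2 higher and Abcg1 lower, where 29.1% of all tested genes did not overlap. Their median log2 change was -0.02 beside 0.04 for all tested genes. Between KO and HET 3 genes fell (Fabp5, Ppard and Abcg1), where 1.39% of all tested genes were lower and 1.99% passed in either direction. Here 5 of the 6 did not overlap, where 22.4% of all tested genes did not.

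The distance of HET from the midpoint of KO and WT was tested as a contrast of its own. The log2 difference was 0.18 ± 0.09 for Fabp5, 0.23 ± 0.10 for Ppard and 0.14 ± 0.09 for Abcg1, so their HET means lay nearer to WT (limma adjusted p = 0.305, 0.261 and 0.448). For Rxrb it was 0.07 ± 0.06 (limma adjusted p = 0.597). None of the 6 genes passed by limma and 1 (Ppard) had an unadjusted p under 0.05, where 2.41% of all tested genes passed the threshold and 17.3% had an unadjusted p under 0.05. Markers of several blood lineages moved with the genotypes too. In HET against WT 4 of 7 tested macrophage markers, 2 of 10 neutrophil markers and 1 of 4 monocyte markers were higher, where 2.94% of all tested genes were, and 1 of 6 erythroid markers was lower, where 0.735% were. The neutrophil list (10 of 10 in the table) summed to 4319 to 7825 FPKM in KO, 6081 to 8538 in HET and 4724 to 6079 in WT libraries. The monocyte list (5 of 5) summed to 285 to 507 FPKM in KO, 402 to 469 in HET and 307 to 379 in WT libraries, and the erythroid list (7 of 7) to 190 to 273 in KO, 190 to 222 in HET and 237 to 269 in WT libraries. In none of these lists was a gene at 0 in every library. Mpo had the highest mean of the neutrophil list, with 1495 FPKM in KO, 1668 in HET and 1678 in WT. Ly6c2 was the largest part of the monocyte sum, with means of 268 FPKM in KO, 288 in HET and 269 in WT. Low genes were Ly6g of the neutrophil, Cx3cr1 of the monocyte and Alas2 of the erythroid list, with at most 1.88, 0.421 and 0.0737 FPKM. The part of these lists in the HET values was not tested. In KO against WT 0 of the 7 macrophage markers passed and 1 of 4 monocyte markers rose, where 1.36% of all tested genes rose. Of 4 tested eosinophil markers 1 fell in KO against WT, where 1.63% of all tested genes fell. The 5 of the list summed to 1157 to 1582 FPKM in KO, 1373 to 2700 in HET and 2129 to 2790 in WT libraries. Of 7 tested stem and progenitor cell markers 2 rose in KO against WT, where 1.36% of all tested genes rose. The list summed to 186 to 210 FPKM in KO, 141 to 159 in HET and 159 to 202 in WT libraries. Cd34 was the largest part of that sum, with means of 101 FPKM in KO, 79.5 in HET and 96.5 in WT. The part of all these markers in the KO values was not tested.

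**Figure D2:**
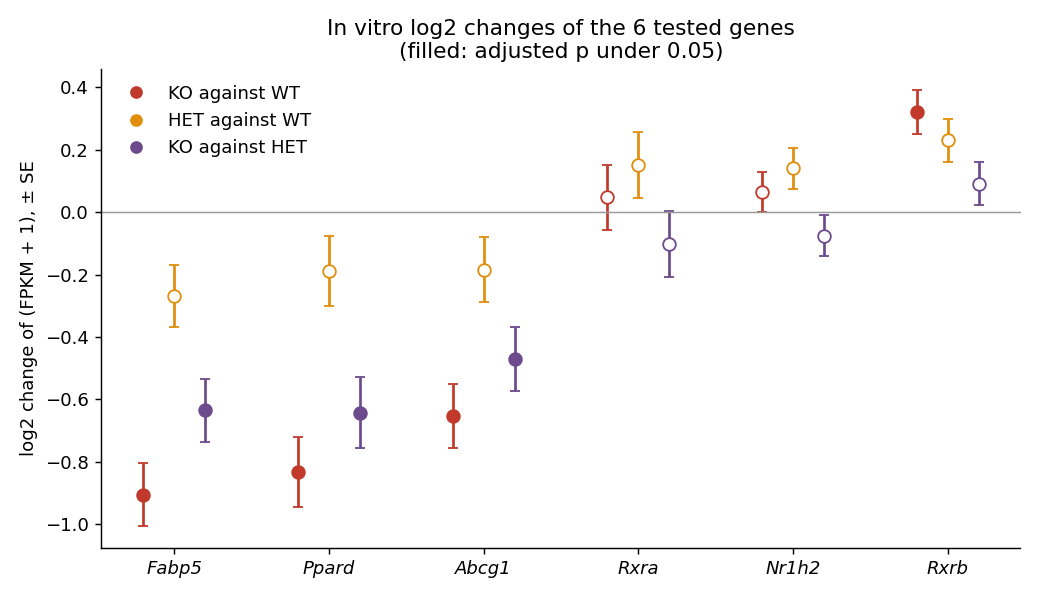
In vitro log2 change of FPKM + 1 (points) with its SE (bars) for the 6 tested genes in KO against WT, HET against WT and KO against HET cells. Filled points passed an adjusted p of 0.05, which were Fabp5, Ppard and Abcg1 below 0 in both KO comparisons and Rxrb above 0 in KO against WT.

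Across the 9 in vitro libraries Ppard and Abcg1 followed each other most closely among the 6 genes, with a Pearson r of 0.96 on the log2 scale. Fabp5 followed Ppard and Abcg1 with r of 0.88 each and ran against Rxrb with r of -0.87. Nr1h2 followed Rxra with r of 0.72 and Fabp5 with r of -0.12. These libraries share 3 genotypes, so r mixes differences between genotypes with those within them and is given with no p.

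The genes most like each changed gene were picked by Pearson r among 7278 genes with a mean of at least 5 FPKM, and these too share the genotype groups. For Fabp5 the highest were Blcap (0.97), the lactate dehydrogenase gene Ldha (0.96), the surface protein gene Thy1 (0.94), the galactokinase gene Galk1 (0.94) and Xpnpep1 (0.94). The lowest for Fabp5 were Kat2b and Cdk7 (both -0.96) and Rint1, Trim30a and the peptide transporter gene Tap2 (all -0.95). For Ppard they were the noncoding RNA gene Dubr (0.99), the glucose transporter gene Slc2a3 (0.98), Abcg1 (0.96), the oxidoreductase gene Ero1a (0.96) and the phosphofructokinase gene Pfkp (0.96). The lowest for Ppard were Rbm38 (-0.97), the HOX cofactor gene Pbx3 (-0.96), the sphingomyelinase gene Smpd1 (-0.96), Timm10 (-0.95) and Paxx (-0.94).

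Abcg1 shared several of these. Its highest were the kinase gene Map2k1 (0.98), Pfkp (0.97), the glycogen synthase gene Gys1 (0.96), Dubr (0.96) and Ppard (0.96), and its lowest were Pbx3 (-0.96), Timm10 (-0.95), Fam117a, Rnf220 and Armcx2 (all -0.94). For Rxrb the highest were Coro7 (0.98), the AP-1 gene Fosb (0.96), the deacetylase gene Hdac10 (0.95), the oxidase subunit gene Ncf1 (0.95) and Rabep2 (0.95). The lowest for Rxrb were Agpat5 (-0.97), Tomm6 (-0.97), Ufd1 (-0.96), Uqcrq (-0.96) and Dnajc21 (-0.96).

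None of the tested genes that PPARs switch on for fatty acid use passed the threshold in KO cells. Of 24 such genes 17 were tested in vitro and 0 passed the limma threshold in KO against WT, with 0 also in HET against WT and in KO against HET. Their median log2 change in KO against WT was -0.02 beside 0.04 for all tested genes. Cpt1a, which brings fatty acids into mitochondria, had 15.3 ± 0.953 FPKM in KO, 14.8 ± 0.979 in HET and 14.3 ± 2.11 in WT cells (SD, n = 3 each). Plin2, a lipid droplet coat gene, had 24.5 ± 1.24 FPKM in KO, 26.8 ± 1.32 in HET and 26.8 ± 2.50 in WT cells. Angptl4, a secreted lipase inhibitor that Ppard is known to induce, had 5.48 ± 0.819 FPKM in KO, 5.12 ± 1.20 in HET and 4.41 ± 0.604 in WT cells (limma adjusted p = 0.370 in KO against WT).

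Of 22 genes of lipid storage that Pparg switches on in fat cells 9 were tested. In KO against WT 1 of them fell, which was Fabp5 itself, where 1.63% of all tested genes fell. The median of the storage genes was 0.00. The lipoprotein lipase gene Lpl had 2.73 ± 0.742 FPKM in KO, 2.04 ± 0.496 in HET and 3.49 ± 0.403 in WT cells (SD, n = 3 each), with a limma adjusted p of 0.366 in KO against WT. Pnpla2, which starts the breakdown of stored fat, had 39.0 ± 5.20 FPKM in KO, 35.8 ± 0.567 in HET and 34.9 ± 3.28 in WT cells (limma adjusted p = 0.423 in KO against WT).

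LXR targets moved in both directions. Of 21 genes 13 were tested, and in KO against WT 3 fell (Abcg1, Scd1 and Scd2) and 1 rose (Smpdl3a). Of all tested genes 1.63% fell and 1.36% rose. The median log2 change of the list was -0.16 beside 0.04 for all tested genes. The list was chosen with earlier results of these data known, so these counts are descriptive. The fatty acid desaturase gene Scd1 had 13.8 ± 0.930 FPKM in KO, 19.5 ± 2.91 in HET and 20.0 ± 0.481 in WT cells (SD, n = 3 each), a log2 change of -0.50 in KO against WT (limma adjusted p = 0.0231). Its relative Scd2 had 224 ± 11.0 FPKM in KO, 282 ± 10.9 in HET and 312 ± 43.5 in WT cells, a log2 change of -0.46 (limma adjusted p = 0.0254). Both calls were lost without KO replicate 1, KO replicate 3 or WT replicate 2, with TPM in place of FPKM and with no filter. The Scd2 call was also lost after quantile normalization and with only KO and WT fitted (limma adjusted p up to 0.102 for Scd1 and 0.121 for Scd2).

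Smpdl3a, a secreted phosphodiesterase gene, moved against the other changed LXR targets. Its level was 4.52, 4.56 and 4.55 FPKM in KO, 2.08, 2.38 and 2.06 in HET and 1.79, 2.25 and 2.99 in WT replicates 1, 2 and 3. All KO libraries lay above all others, and HET lay within the WT values. The log2 change was 0.75 ± 0.13 in KO against WT (limma adjusted p = 0.0108) and 0.81 in KO against HET (limma adjusted p = 0.00536), and the KO against WT call was lost without KO replicate 1 or 3 (limma adjusted p = 0.0570 and 0.0583).

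Between KO and HET the LXR targets Abcg1, Scd1 and Srebf1 fell and Smpdl3a and Apoc1 rose, where 1.39% of all tested genes fell and 0.598% rose. The Scd1 call here (limma adjusted p = 0.0377) was lost without any KO or HET library or WT replicate 2, with no filter (0.0804) and with replicate number as a block (0.0542), at limma adjusted p up to 0.131. Srebf1, the transcription factor of fatty acid synthesis, had 25.0 ± 0.524 FPKM in KO, 33.9 ± 1.82 in HET and 30.7 ± 1.27 in WT cells (SD, n = 3 each). Its log2 change was -0.43 in KO against HET (limma adjusted p = 0.00823, and 0.0608 and 0.0556 without KO replicate 3 and HET replicate 3) and -0.29 in KO against WT (limma adjusted p = 0.0510, and under 0.05 in 5 of 17 alternatives). In HET it stood 0.28 above the midpoint of KO and WT on the log2 scale (limma adjusted p = 0.0348). That call was lost with the block (0.0786), with median-ratio size factors (0.0593) and without KO replicates 1 or 3, any HET library or WT replicate 2 (limma adjusted p up to 0.185). Apoc1, an apolipoprotein gene, had 2.39 ± 0.531 FPKM in KO, 0.959 ± 0.381 in HET and 1.67 ± 0.271 in WT cells, a log2 change of 0.80 in KO against HET (limma adjusted p = 0.0230). Its HET mean lay below the midpoint (log2 difference -0.63, limma adjusted p = 0.0349). Both Apoc1 calls were lost with no filter and without KO replicates 2 or 3 or HET replicates 1 or 3 (limma adjusted p up to 0.117 and 0.196), and the midpoint call also with the block (0.0658). In HET against WT 0 of the 13 LXR targets passed the limma threshold.

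Of 40 other nuclear receptor genes 12 were tested in vitro, with a median log2 change of 0.06 in KO against WT. In that comparison 1 of them rose, where 1.36% of all tested genes rose. This was Nr4a1, a receptor that cells induce within minutes of a stimulus, with 5.86 ± 0.784 FPKM in KO, 3.32 ± 0.583 in HET and 2.03 ± 0.0922 in WT cells (SD, n = 3 each). Its log2 change was 1.17 ± 0.12 in KO against WT (limma adjusted p = 0.000813), 0.67 in KO against HET (limma adjusted p = 0.0140) and 0.50 in HET against WT (limma adjusted p = 0.0442). The KO against HET call was lost without KO replicate 3, HET replicate 1 or HET replicate 2 (limma adjusted p up to 0.0879), and the HET against WT call in 12 of 17 alternatives, 7 of them without a single library (up to 0.158). The retinoic acid receptor gene Rara had 4.73 ± 0.479 FPKM in KO, 7.54 ± 1.42 in HET and 6.02 ± 0.508 in WT cells and fell in KO against HET (log2 change -0.56, limma adjusted p = 0.0497), a call lost in 12 of 17 alternatives, the block among them (0.103) and 6 without a single library (up to 0.235). Of 23 coregulator genes, which activate or silence these receptors, 21 were tested and 0 passed the limma threshold in KO against WT, HET against WT or KO against HET. The corepressor gene Ncor1 had 27.6 ± 5.02 FPKM in KO, 26.3 ± 2.61 in HET and 23.0 ± 4.83 in WT cells, and its deacetylase partner Hdac3 had 39.8 ± 1.84, 44.2 ± 2.72 and 47.0 ± 2.50 FPKM in KO, HET and WT cells.

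**Figure D3:**
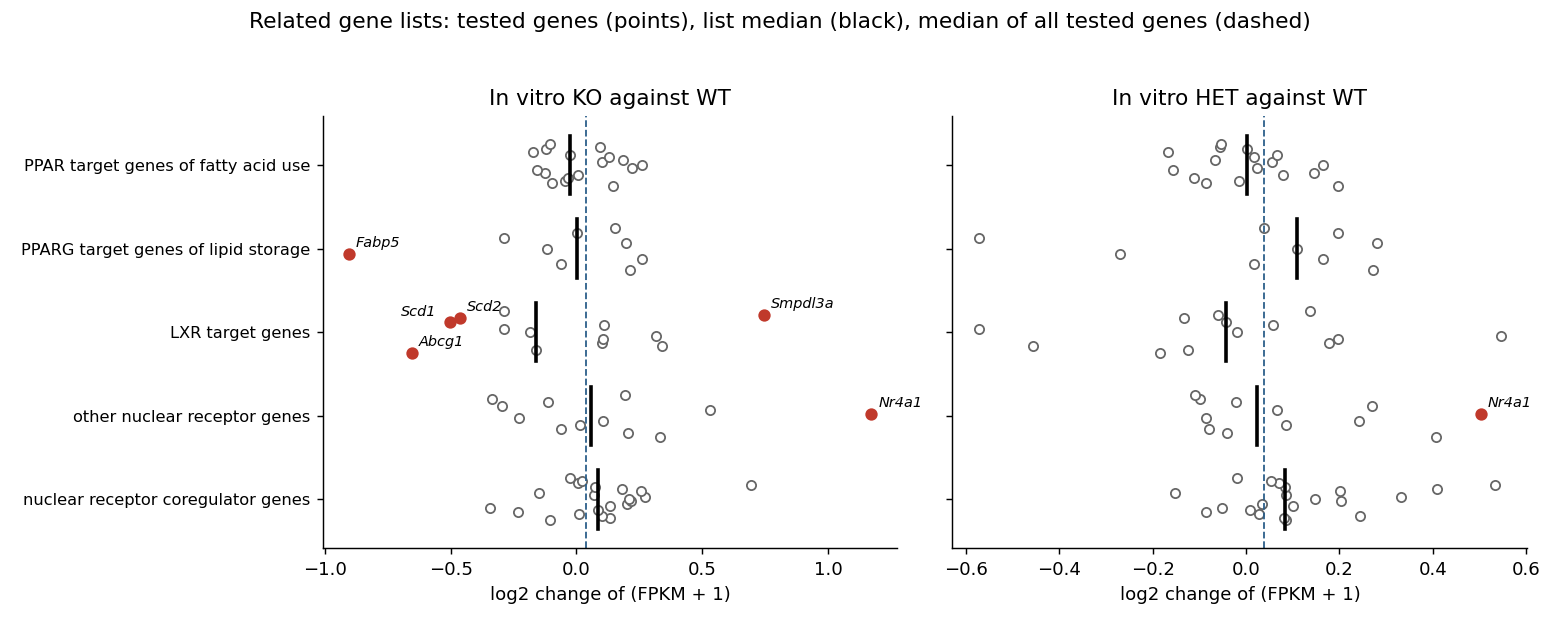
In vitro log2 change of FPKM + 1 in KO against WT (left) and HET against WT (right) for each tested gene (points) of 5 lists, with the list median (black bar) and the median of all tested genes (dashed line, 0.04). Filled named points passed an adjusted p of 0.05, and the remaining points of each list lie on both sides of the dashed line.

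In sorted bone marrow the same genes varied widely between libraries of one genotype. Fabp5 was listed at 0, 7.41 and 26.4 FPKM in KO replicates 1, 2 and 3, at 0 in HET replicates 1 and 3 and at 0, 0.0406 and 37.2 in WT replicates 1, 2 and 3. The highest and the lowest values both stood within WT, and KO and WT overlapped. Rxrb stood at 2.85, 11.2 and 8.72 FPKM in KO, at 0 and 0 in HET and at 10.9, 32.5 and 1.89 in WT libraries in the same order. Here KO and WT overlapped and both lay above HET.

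Nr1h2 was the only one of the 6 above 0 in every bone marrow library, with 22.0, 11.1 and 30.7 FPKM in KO, 39.8 and 46.4 in HET and 37.4, 42.3 and 6.53 in WT libraries. HET values were above all KO values and overlapped with WT, and WT replicate 3 lay far below the other WT libraries. Abcg1 was listed at 8.48, 17.0 and 9.05 FPKM in KO, 0 and 0 in HET and 0, 11.3 and 11.2 in WT libraries. WT replicate 1 shared its 0 with the HET group, and the other WT values lay within those of KO.

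The PPAR genes were seen in few bone marrow libraries and were not tested by limma. Ppard was listed at 0, 0 and 0.739 FPKM in KO, 0 and 0 in HET and 0.0140, 1.39 and 0 in WT libraries (exact two-sided permutation p = 0.7 for KO against WT). Pparg was listed at 19.7 FPKM in KO replicate 2 and at 0 in all other libraries (exact two-sided permutation p = 1 for KO against WT). No KO and WT group was separated for either gene.

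**Figure D4:**
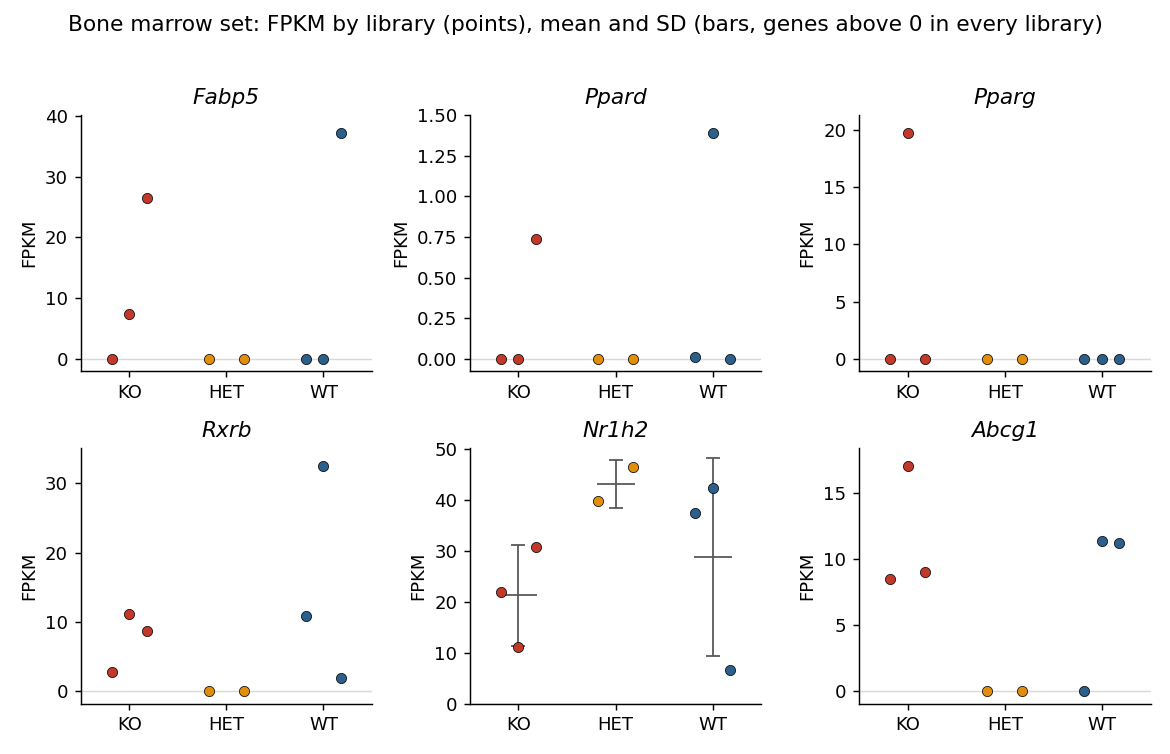
FPKM of the 6 genes in each sorted bone marrow library (points) in KO (n = 3), HET (n = 2) and WT (n = 3) cells, with the mean (long bar) and SD (short bars) for Nr1h2, which was above 0 in every library. KO and WT points overlap in all 6 panels, and HET points lie at 0 in all but the Nr1h2 panel.

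By limma 0 of the 4 bone marrow genes tested passed the threshold in KO against WT, where 0% of 7246 tested genes did, 370 of them (5.11%) having an unadjusted p under 0.05. The log2 change was 0.85 ± 1.68 for Fabp5, -0.45 ± 1.37 for Rxrb, -0.17 ± 1.18 for Nr1h2 and 1.17 ± 1.39 for Abcg1 (SE, limma adjusted p from 0.995 to 0.999), so the SE of Fabp5 was larger than its change in vitro. In HET against WT 0 of the 4 passed by limma, where 0.262% of all did, and Rxrb had the largest change at -3.39 ± 1.53 (limma adjusted p = 0.396). Between KO and HET 0 of the 4 passed, where 0.166% did, with 2.94 ± 1.53 for Rxrb and 3.58 ± 1.56 for Abcg1 (limma adjusted p = 0.504 and 0.408). In each of these HET comparisons 1 of the 4 had an unadjusted p under 0.05, where 12.4% of all genes did in HET against WT and 11.3% in KO against HET. The groups did not overlap for 0 of the 4 in KO against WT, where 12.3% of all tested genes did not, for Rxrb in HET against WT, where 30.1% did not, and for Rxrb, Abcg1 and Nr1h2 in KO against HET, where 27.9% did not.

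The HET bone marrow values rest on the 2 shallowest libraries, and the median log2 change of all tested genes was -0.99 in HET against WT and 0.83 in KO against HET. Every bone marrow library, of any genotype, held fewer genes above 0 than any in vitro library. Neutrophil markers (10 of 10) summed to 136099 to 211421 FPKM in KO, 131120 to 132245 in HET and 6283 to 55950 in WT libraries. S100a8 made up the largest part, with means of 107248 FPKM in KO, 92387 in HET and 21023 in WT. Camp, Ngp and S100a9 were also lowest in WT. Ly6g was above 0 in a single KO library, at 34.1 FPKM. Elane differed less (4107, 4634 and 3506 in KO, HET and WT), and Prtn3 was highest in WT (1695, 1196 and 1828). Mpo, Prtn3, Ltf and Mmp8 had their lowest mean in HET. The part of these markers in the values above was not tested. Adipocyte markers, 1 of 6 in the table, reached 0 in KO, 0.186 in HET and 0.149 FPKM in WT libraries at most. None of the tested genes of the 6 lists passed the limma threshold in the bone marrow set.

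The KO against WT change was also compared between the sets. The in vitro change minus the bone marrow change was -1.75 ± 1.79 for Fabp5, -1.82 ± 1.09 for Abcg1, 0.77 ± 1.08 for Rxrb and 0.23 ± 0.92 for Nr1h2 on the log2 scale (SE, limma adjusted p = 0.900, 0.764, 0.939 and 0.992). By limma 0 of these 4 genes passed, 0 had an unadjusted p under 0.05, and of all 6915 genes tested 0.738% passed and 7.85% had an unadjusted p under 0.05. The fall of Fabp5 and Abcg1 and the rise of Rxrb seen in vitro were therefore neither found in sorted bone marrow nor shown to differ from it. Between the sets 1 of 14 tested PPAR target genes of fatty acid use passed the limma threshold, with a negative difference. Of all tested genes 0.26% did so. None of the tested genes of the other lists passed.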

How the data were processed

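Libraries were made from TRIzol RNA with a VAHTS Universal V6 kit, per the labels' protocols, and the build named in the submitters' processing notes was mm10. The sources used here do not name the aligner, counting tool, annotation or strand setting. The authors deposited FPKM for each set as a separate table, per the file headers. FPKM hold no raw counts, shift where some transcripts take up much of a library, and can be 0 through a failed estimate. For HET bone marrow, replicate 2 was not used here.

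Groups were compared within a table with limma 3.58.1 (R 4.3.3, statmod 1.5.0, data.table version 1.17.8) on log2(FPKM + 1), which understates changes of low genes. Genes with at least 1 FPKM in at least 3 libraries were kept (10877 in vitro, 7246 in bone marrow). All genotypes shared a fit with trend and robust moderation, and Benjamini-Hochberg adjusted p-values under 0.05 over all tested genes were called. Genes that failed the filter had an exact two-sided permutation test of FPKM. The difference between sets came from a joint limma fit.

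Depth was estimated from single-exon genes, whose low values step by 1 fragment. Of these values, 26 to 126 per library, 77.5 to 87.8% lay within 0.1 of a whole step. Each depth was chosen to bring values near whole steps, so this share is no independent check and the depths are approximate. Depth entered no test. Same-numbered in vitro libraries of different genotypes deviated with a correlation of -0.30 to 0.18, over 0.1 in 3 of 9 pairs, so replicate numbers were not treated as pairs. The members and lists were chosen with earlier results of these data known. The text names all members, tested genes within 1000 kb of Fabp4, up to 4 genes of smallest p per list and comparison among those called, and the 5 most and 5 least alike genes of each called member. List members that failed the threshold and illustrate a list were chosen after their values were seen. Promoter windows and positions are RefSeq's (GRCm38.p6), and 7 members had one or more windows.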

Additional observations from a re-analysis of the deposited data

How the results depend on the processing

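In KO against WT in vitro, the falls of Fabp5 and Ppard passed the limma threshold in 17 of 17 alternatives each (adjusted p up to 0.00916 and 0.0240), the fall of Abcg1 in 16 of 17, and the rise of Rxrb in 7 of 17. Alternatives were followed for the members, the called list genes named above and the tested neighbours of Fabp4, and not for the other genes named. Of their 20 changes past the threshold, 0 changed direction in any alternative. Of the 100 changes that did not pass, 28 crossed 0 in at least 1 alternative. Of these, 9 were in vitro, 15 in bone marrow and 4 in the difference between sets. Of the 6 tested genes, leaving out a library called 2 to 4 in KO against WT, 0 to 1 in HET against WT and 1 to 3 in KO against HET, and in no case any in HET against the midpoint. The replicate block called 3 in KO against WT and 2 in KO against HET, and lost Rxrb and Abcg1 (adjusted p = 0.0766 and 0.0949). Among list genes it lost Scd1 and Rara in KO against HET (0.0542 and 0.103) and Srebf1 and Apoc1 in HET against the midpoint (0.0786 and 0.0658).

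Counts over all genes moved more. With no filter on low values KO against WT gave 152 and HET against WT 250 genes, beside 325 and 400. With the replicate block they gave 172 and 234, and with only KO and WT in the fit KO against WT gave 176. A filter at FPKM of 5 gave 136 in KO against HET and 143 in HET against the midpoint, beside 216 and 262. Leaving out a library gave 66 to 475 genes in KO against WT, 84 to 628 in HET against WT, 73 to 344 in KO against HET and 79 to 332 in HET against the midpoint. The share of calls that were higher was 35.1% after quantile normalization and 35.2% with median-ratio size factors, beside 45.5%, in KO against WT, and 60.2% after quantile normalization, beside 80.0%, in HET against WT. After rescaling to TPM the median of all genes was 0.11 in HET against WT.

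In bone marrow, quantile normalization gave 2, 12 and 7 genes in KO against WT, HET against WT and KO against HET, beside 0, 19 and 12. A pseudocount of 0.1 gave 35 and 31 in the HET comparisons, no filter gave 6 in KO against HET, and the replicate block and only the compared groups gave 0 in both. Leaving out a library gave 0 to 4, 0 to 323 and 0 to 330 genes. The difference between sets gave 30 with a filter at 5, 23 after quantile normalization, 24 with the replicate block and 19 to 135 without a library, beside 51. The KO minus WT difference of Fabp4 ran from -0.181 to -0.0163 FPKM without a library. The cause of these shifts was not tested. Fabp4 and Ppara were seen at a few fragments, which limits what their values can show. The values of the 2 HET bone marrow libraries, the shallowest by estimated depth, are limited too. The part of depth in these values was not tested. Low numbers of genes above 0 limit the whole bone marrow set, also its deep libraries.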
